A study of Homo sapiens with 10 samples.

Results

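The Mu-class glutathione transferases GSTM1, GSTM2, GSTM3, GSTM4 and GSTM5 were followed in RNA-seq libraries of HAP1 cells. The members are the 5 rows with these symbols among the 59453 genes of the count tables. HAP1 is a near-haploid human cell line that grows attached to the dish and was derived from a leukaemia line. The class was singled out because GSTM2 stood out in the comparisons of knockout cells with wild type (WT), so those comparisons are given as a description with no test of the members. Untreated WT cells, cells without the adenine DNA glycosylase MUTYH (MUTYH-/), cells without the 8-oxoguanine DNA glycosylase OGG1 (OGG1-/) and cells without both (DKO) each gave 2 libraries, 1 per clone. The remaining 2 libraries were from the WT clones 2 and 11 harvested 24 h after 100 µM H2O2. The knockouts were made with CRISPR-Cas9, all groups share the HAP1 background, and both DKO clones came from 1 OGG1-/ clone, so DKO and OGG1-/ cells are not of independent origin. Each difference between genotypes thus rests on 2 clones a side.

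Glutathione transferases join the thiol of glutathione to reactive, electron-poor molecules, which are then exported from the cell and excreted. The cytosolic enzymes work as dimers and are grouped into classes by sequence, of which Mu is one. The Mu genes lie side by side in a cluster and arose by duplication. GSTM1 is known for a deletion carried by many people, GSTM2 for activity towards oxidised catecholamines, and GSTM3 is the most divergent member. Many transferase genes are induced through NRF2, the transcription factor that answers oxidative and electrophilic stress.

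The libraries held 22225091 to 22674964 counts, and a floor of 3 counts per library corresponds to 0.132 to 0.135 CPM, a count scaled to a common library size. Mitochondrial genes took 2.995 to 7.455% of the counts. The first principal component of the untreated libraries, computed without the GSTM genes, held 31.1% of the variance and split each genotype into its clones, with WT clone 2, MUTYH-/ clone 8, OGG1-/ clone 22 and DKO clone 14 on one side. The labels name no batch for this split. As a check of the labels, the OGG1 row held 275 and 295 counts in WT, 27 and 254 in OGG1-/ and 215 and 223 in DKO. The MUTYH row held 105 and 89 counts in WT, 101 and 83 in MUTYH-/ and 106 and 50 in DKO, so the transcript counts alone do not separate these genotypes. Of 6 markers of adherent cells 5 were abundant, and COL4A1 had 0 to 9 counts. Of 10 blood cell markers 8 stayed under 1 CPM in all libraries.

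By GENCODE v44 on GRCh38, the cluster lies on chromosome 1. GSTM4 (109656099 to 109665496), GSTM2 (109668022 to 109709551), GSTM1 (109687814 to 109709039) and GSTM5 (109711780 to 109775428) are on the plus strand, and GSTM3 (109733932 to 109741038) is on the minus strand. All 5 are annotated as protein coding. Annotated exons of GSTM1 and GSTM2 overlap on the same strand over 559 bases, which is 22.3% of the exon bases of GSTM1 and 6.13% of those of GSTM2. The span of GSTM3 lies within that of GSTM5 on the opposite strand, and they share no exon bases.

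How alike the genes are bears on which row a read is counted in, so the start of each coding sequence is shown, read from the canonical GENCODE v44 transcript on GRCh38. Capitals mark letters that differ from GSTM2 or are inserted relative to it.
GSTM2: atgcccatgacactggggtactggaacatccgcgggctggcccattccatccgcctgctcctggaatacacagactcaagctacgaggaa
GSTM1: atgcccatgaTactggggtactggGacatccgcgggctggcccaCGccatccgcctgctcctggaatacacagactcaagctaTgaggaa
GSTM4: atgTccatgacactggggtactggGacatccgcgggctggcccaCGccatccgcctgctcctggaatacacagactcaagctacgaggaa
GSTM5: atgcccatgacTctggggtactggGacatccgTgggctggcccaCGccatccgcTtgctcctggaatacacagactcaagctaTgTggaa
GSTM3: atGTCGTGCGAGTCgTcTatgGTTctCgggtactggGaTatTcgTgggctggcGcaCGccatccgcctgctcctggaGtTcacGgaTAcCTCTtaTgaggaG
In these 90 bases GSTM1 differed from GSTM2 at 5 positions, GSTM4 at 4 and GSTM5 at 8. The matching 102 bases of GSTM3 held 36 such letters, 12 of them in an insertion. Over the whole coding sequence GSTM1 and GSTM2 were 89.9% identical, GSTM1 and GSTM4 92.2% and GSTM2 and GSTM4 89.1%. GSTM3 was 72.3 to 74.9% identical to the other members.

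The longest coding run in which GSTM2 is identical to both GSTM4 and GSTM5 had 78 bases, at coding positions 121 to 198. It is shown because a read that falls inside it cannot be placed in any single one of these genes. In GSTM2 it spans 2 exons between chr1:109668933-109669310 on the plus strand, and it also lies within the 114-base run that GSTM2 shares with GSTM1.
GSTM2 and GSTM4: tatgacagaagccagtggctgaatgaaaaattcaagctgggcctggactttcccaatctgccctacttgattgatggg
The longest identical run of GSTM1 and GSTM2 over the whole transcript had 479 bases and spans the end of the coding part. Among windows of 100 bases along the canonical transcript, 37.9% of those of GSTM1 and 37.0% of those of GSTM2 occurred in another member. The share was 4.4% for GSTM4, 1.3% for GSTM5 and 0 for GSTM3. With windows of 50 bases the shares were 57.9% for GSTM1, 46.1% for GSTM2, 18.7% for GSTM4, 8.0% for GSTM5 and 0 for GSTM3. Of the 50-base windows of GSTM3, 2.01% occurred in genes outside the family. The counts of GSTM1 and GSTM2 are thus the most uncertain.

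**Figure D1:**
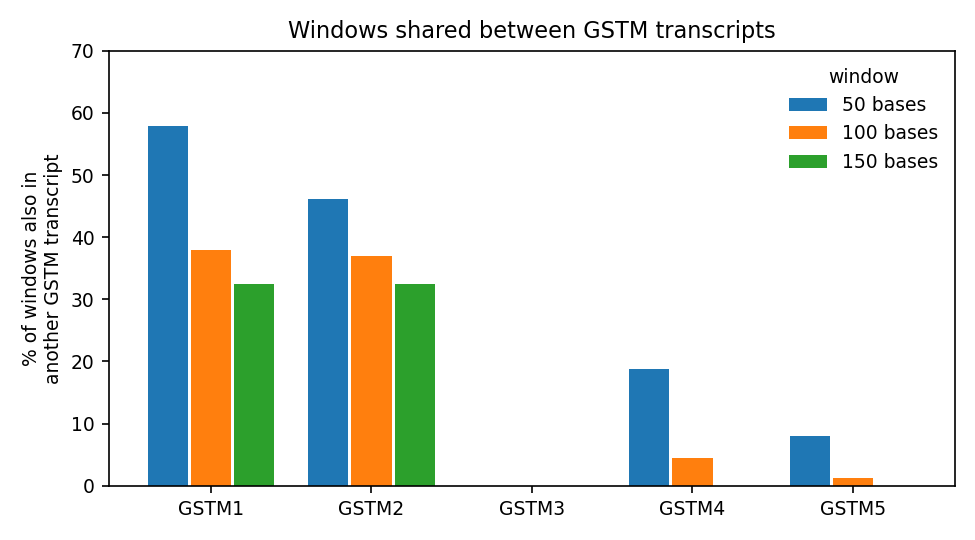
Percentage of windows along each canonical GSTM transcript (y axis) that also occur in another GSTM transcript, for windows of 50, 100 and 150 bases (bars). At 150 bases GSTM1 (32.5%) and GSTM2 (32.4%) still share windows, and the other members are at 0.

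The bases upstream of each start in RefSeq (GRCh38.p14) are shown because the members lie side by side but differ in level. Each line holds 100 bases, 5′ to 3′ on the strand of the gene, and capitals mark runs of at least 12 bases found in the window of another member. The windows are chr1:109667957-109668056 for GSTM2, chr1:109687717-109687816 for GSTM1, chr1:109712151-109712250 for GSTM5, chr1:109655999-109656098 for GSTM4, all on the plus strand, and chr1:109741039-109741138 on the minus strand for GSTM3.
GSTM2: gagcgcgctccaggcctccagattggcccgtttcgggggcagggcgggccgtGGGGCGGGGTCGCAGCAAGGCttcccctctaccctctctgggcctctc
GSTM1: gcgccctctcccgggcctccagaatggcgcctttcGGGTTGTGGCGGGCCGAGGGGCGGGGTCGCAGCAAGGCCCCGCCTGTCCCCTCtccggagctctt
GSTM5: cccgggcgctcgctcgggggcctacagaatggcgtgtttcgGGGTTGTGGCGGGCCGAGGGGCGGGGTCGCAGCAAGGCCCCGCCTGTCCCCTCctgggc
GSTM4: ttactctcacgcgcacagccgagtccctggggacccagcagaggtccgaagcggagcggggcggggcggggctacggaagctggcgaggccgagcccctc
GSTM3: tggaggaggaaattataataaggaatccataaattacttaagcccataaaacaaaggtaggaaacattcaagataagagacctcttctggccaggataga
GSTM1 and GSTM5 shared 53 bases in these windows, GSTM2 shared 21 bases with them, and GSTM3 and GSTM4 shared none. In the full RefSeq promoter windows, searched on both strands with matches counted separately for each motif, the GC box GGGCGG occurred 4 times at GSTM2, 2 times at GSTM4 and GSTM5, 1 time at GSTM1 and 0 times at GSTM3. It occurs in 45.0% of the 35116 promoters. The core of the antioxidant response element, which NRF2 binds, was searched as TGACNNNGC and occurred 1 time each at GSTM1 and GSTM5, and in 13.3% of all promoters. The xenobiotic response element core GCGTG occurred 1 time each at GSTM3, GSTM4 and GSTM5, and in 36.5% of all promoters. The E-box CACGTG, found in 7.26% of all promoters, occurred in no GSTM window.

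GSTM4 was the main Mu-class row in HAP1, with 584 to 799 counts per library, and made up 60.2 to 84.7% of the summed CPM of the 5 rows. GSTM2 had 56 to 199 counts and GSTM3 had 0 to 312 counts. GSTM1 had 0 to 6 counts and GSTM5 had 0 to 2 counts, so both were at or near the floor and did not pass the filter on low counts. Thus 3 of the 5 members were tested. Per length, GSTM4 was also the highest member, with a mean of 5.69 CPM per kilobase (RPKM) over union exons, and its lowest library (4.84) was above each library of the other members. GSTM3 (mean 1.04 RPKM, range 0 to 2.96) and GSTM2 (0.595 RPKM, 0.283 to 0.957) overlapped on that scale, and their order turned around with the length of the canonical transcript (1.19 RPKM for GSTM3 and 4.65 RPKM for GSTM2).

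**Figure D2:**
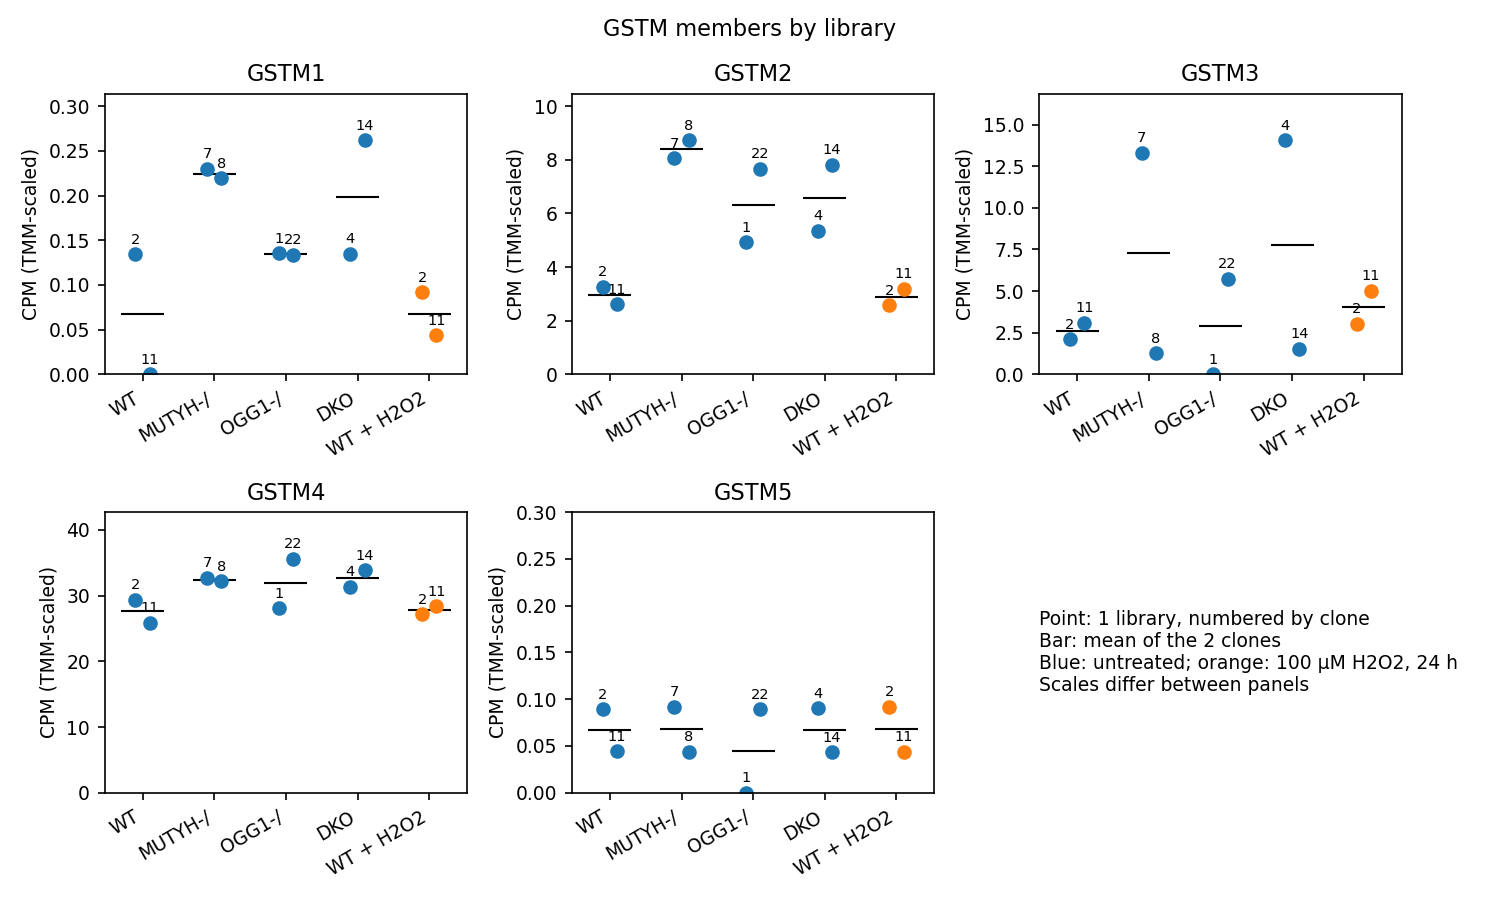
TMM-scaled CPM of each GSTM member (y axes, which differ between panels) in the 2 libraries of each group, with clone numbers beside the points and bars at group means. All 6 knockout libraries lie above the WT libraries for GSTM2, which was chosen from these comparisons. The clones of 1 genotype lie far apart for GSTM3.

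Among 25 rows of glutathione transferases and the related membrane enzymes, ranked by RPKM over union exons, the members took ranks 7 (GSTM4), 11 (GSTM3), 12 (GSTM2), 18 (GSTM1) and 20 (GSTM5). GSTP1, the Pi-class enzyme found in many cultured lines, was first with 424 RPKM, and GSTO1 (25.2), GSTA4 (24.3), MGST1 (20.8), GSTK1 (12.4) and MGST2 (6.04) were also above GSTM4. These ranks depend on the length used. With the canonical transcript GSTM4 had a mean of 21.9 RPKM, a value not computed for transferases outside the class. By mean CPM GSTM4 (30.5) was above MGST2 (19.1). The Alpha-class rows GSTA2 and GSTA5 had no counts.

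**Figure D3:**
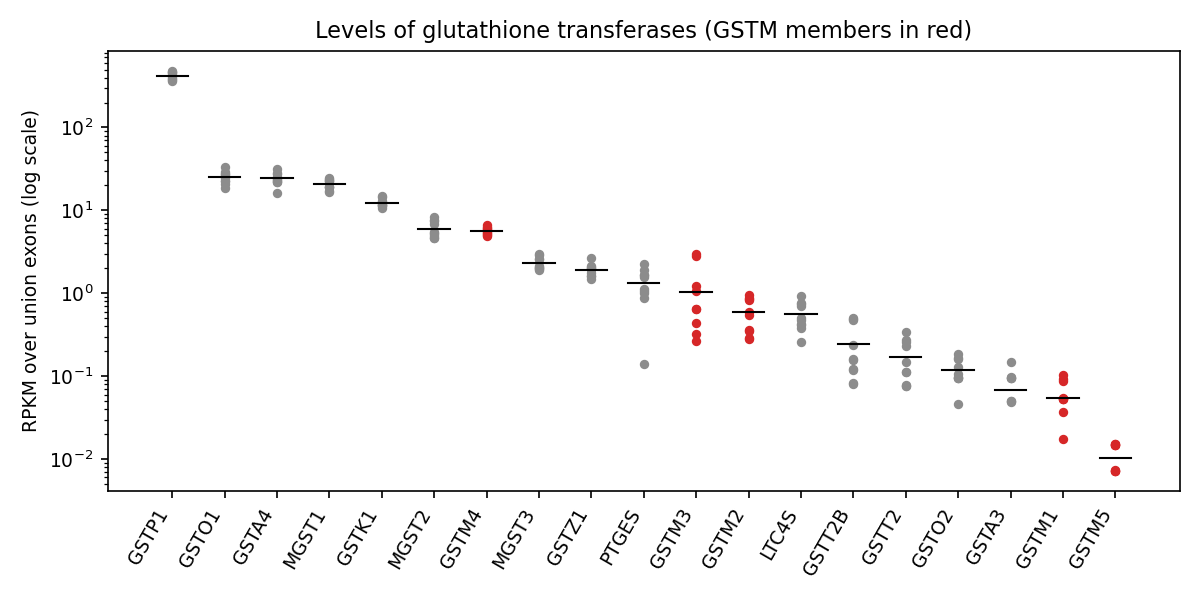
RPKM over union exons (y axis, log scale) of glutathione transferase rows with a mean of at least 0.05 CPM, with 1 point per library (libraries at 0 are not drawn) and a bar at the mean. GSTM4 (red) is the only member among the first 10, at rank 7.

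GSTM2 was higher in all 3 knockout genotypes than in WT. It was at 3.26 and 2.62 CPM in WT clones 2 and 11. In MUTYH-/ it was at 8.05 CPM in clone 7 and 8.73 CPM in clone 8. The OGG1-/ clones 1 and 22 had 4.93 and 7.67 CPM, and DKO clones 4 and 14 had 5.36 and 7.81 CPM. All 6 knockout libraries were above both WT libraries, and the lowest knockout library was 1.51 times the higher WT library. GSTM2 was chosen from these comparisons, and the share of all genes that separate in this way was not counted. The separation is thus a description only. In a culture measured in bulk, fewer cells that express a gene and less RNA per cell cannot be told apart. The group means ± SD (n = 2) were 2.94 ± 0.456 CPM in WT, 8.39 ± 0.478 in MUTYH-/, 6.30 ± 1.93 in OGG1-/ and 6.59 ± 1.73 in DKO.

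Relative to WT, the fitted log2 fold change ± SE of GSTM2 was 1.53 ± 0.32 in MUTYH-/, 1.10 ± 0.32 in OGG1-/ and 1.18 ± 0.32 in DKO. These 3 comparisons share the same 2 WT libraries. GSTM2 met the criterion for a differentially expressed gene (DEG), an unadjusted P of at most 0.05 with a log2 fold change beyond 1, in each, as did 1.19% of the 17881 tested genes in MUTYH-/, 1.67% in OGG1-/ and 1.77% in DKO. Since these comparisons led to the choice of the class, nothing is read from that count. GSTM2 no longer met the criterion in OGG1-/ without clone 22 (log2 0.76) or without WT clone 11 (log2 0.96), nor in DKO without clone 14 (log2 0.86).

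In each untreated genotype the GSTM2 level was higher in the clone on the side of the first principal component that holds WT clone 2. With that side as a block, the log2 fold changes were 1.54 ± 0.22, 1.08 ± 0.22 and 1.16 ± 0.22 in the same order. Every genotype has a library on each side, so this block could hardly move the fold changes. It therefore cannot show what part the split has in the difference from WT. Reads that fit several members may be missing from every row, and their number is not known.

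Between the knockouts, GSTM2 did not pass the test. It was lower in both DKO libraries and in both OGG1-/ libraries than in either MUTYH-/ library, with log2 differences of -0.35 ± 0.31 for DKO minus MUTYH-/ (edgeR, BH adjusted p = 1.00) and -0.42 ± 0.31 for OGG1-/ minus MUTYH-/ (adjusted p = 1.00). DKO and OGG1-/ libraries interleaved, with a log2 difference of 0.08 ± 0.31 (adjusted p = 1.00). The share of all genes with libraries separated as those of MUTYH-/ were here was not counted, so that separation is a description only. In order of the means, MUTYH-/ stood first, followed by DKO and OGG1-/, which did not differ beyond their spread, and by WT.

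No member met the criterion in any comparison of knockouts by edgeR, and none had an unadjusted P under 0.05. The count by the DESeq2 Wald test was also 0. Of all genes, 1.44% met it for DKO against OGG1-/, 1.99% for DKO against MUTYH-/ and 1.43% for OGG1-/ against MUTYH-/.

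GSTM3 differed most between the clones of 1 genotype. MUTYH-/ clone 7 had 13.3 CPM (289 counts) and clone 8 had 1.27 CPM (29 counts). DKO clone 4 had 14.1 CPM (312 counts) and clone 14 had 1.53 CPM (35 counts). OGG1-/ clone 22 had 5.75 CPM (129 counts), while clone 1 had no count. The WT clones 2 and 11 lay within this range, at 2.10 and 3.11 CPM. Within a genotype the level thus differed 10.5-fold in MUTYH-/ and 9.20-fold in DKO, and OGG1-/ clone 1 was at least 42.4-fold lower than clone 22, taking a floor of 3 counts in that library. Against WT clones 2 and 11 it was at least 15.5-fold and 22.9-fold lower.

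Such differences between clones were uncommon among the 14820 genes with a mean of at least 1 CPM. A log2 difference as large as that of GSTM3 was found for 0.466% of them in MUTYH-/, 0.0742% in OGG1-/ and 0.101% in DKO, but for 19.01% in WT. For GSTM2 the corresponding shares in the untreated genotypes ran from 23.8 to 75.4%, and for GSTM4 they were at least 50.9%. OGG1-/ clone 1 held 3 genes at 0 that had at least 10 counts in each of the other 7 untreated libraries, GSTM3 among them. GSTM3 levels did not follow the sides of the first principal component in all genotypes, since the higher OGG1-/ clone was on the other side from the higher WT, MUTYH-/ and DKO clones.

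The fitted log2 fold changes of GSTM3 against WT were smaller than their errors, at 1.497 ± 1.69 in MUTYH-/, 0.14 ± 1.70 in OGG1-/ and 1.59 ± 1.70 in DKO. Libraries of these groups overlapped with WT in each comparison. Between knockouts the differences were 1.45 ± 1.69 for DKO minus OGG1-/, 0.09 ± 1.63 for DKO minus MUTYH-/ and -1.36 ± 1.68 for OGG1-/ minus MUTYH-/, each with an edgeR adjusted p of 1.00. Without OGG1-/ clone 22 the OGG1-/ group is 1 library at 0 counts. GSTM3 then met the criterion against both other knockouts, with adjusted p values of 0.977 and 0.998.

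GSTM4 varied little, with 1.37 times between the lowest and the highest library. It was at 29.4 and 25.9 CPM in WT clones 2 and 11, 32.7 and 32.2 CPM in MUTYH-/ clones 7 and 8, 28.1 and 35.6 CPM in OGG1-/ clones 1 and 22, and 31.4 and 33.9 CPM in DKO clones 4 and 14. The MUTYH-/ and DKO libraries were above both WT libraries by a small margin, and OGG1-/ overlapped with WT. For this separation too, the share of all genes was not counted. The log2 fold changes were 0.25 ± 0.17, 0.21 ± 0.17 and 0.25 ± 0.17 in MUTYH-/, OGG1-/ and DKO. Between knockouts they lay from -0.04 to 0.04 (SE 0.17, edgeR adjusted p = 1.00 each). For every 100 counts of its neighbour GSTM4, GSTM2 had 10.1 to 11.1 counts in WT and 17.1 to 27.1 in the knockouts. This ratio uses the same GSTM2 counts and a row that varied little, so it adds no separate support.

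**Figure D4:**
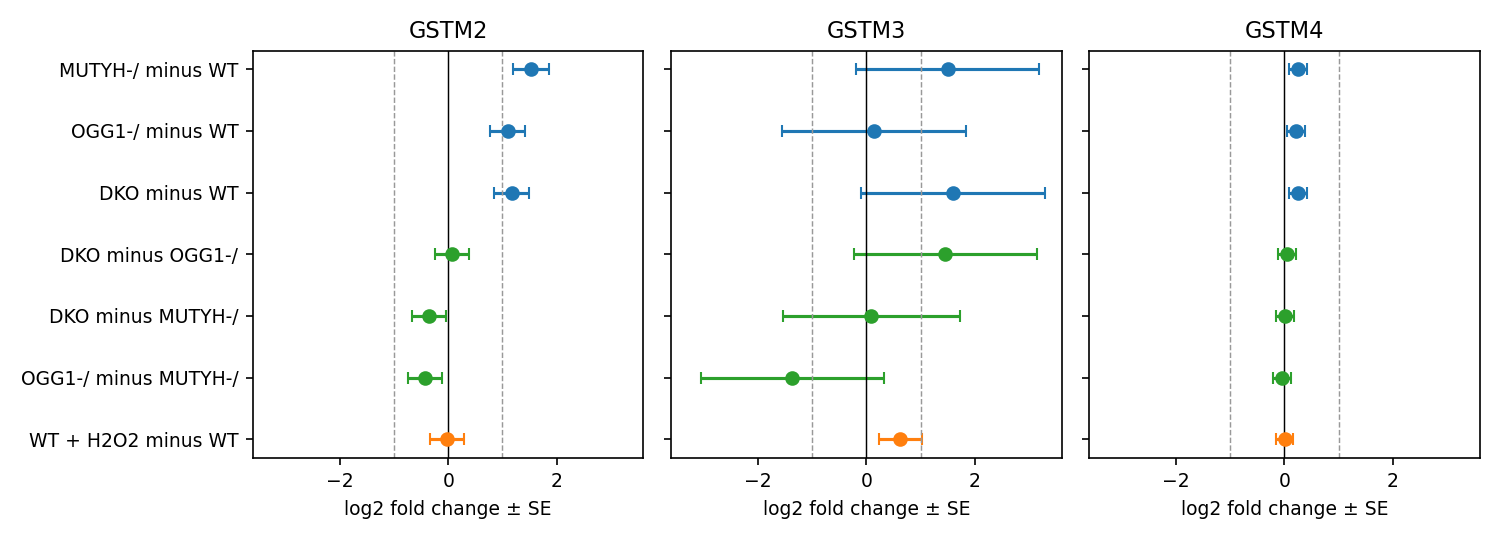
Log2 fold change ± SE (x axis) of GSTM2, GSTM3 and GSTM4 in 7 comparisons, against WT (blue), between knockouts (green) and after H2O2 (orange), with dashed lines at -1 and 1. GSTM2 lies beyond 1 against WT and near 0 after H2O2, and the error bars of GSTM3 are the widest.

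GSTM1 and GSTM5 gave too few counts for a comparison. GSTM1 had 3 and 0 counts in WT, 5 and 5 in MUTYH-/, 3 and 3 in OGG1-/, 3 and 6 in DKO and 2 and 1 after H2O2, so only 3 libraries were above the floor. GSTM5 had at most 2 counts in any library. At this depth no difference of either gene was detectable, and no fold change is given.

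H2O2 for 24 h in WT did not change a GSTM member by the test, in a comparison that played no part in their choice. GSTM2 went from 3.26 to 2.58 CPM in clone 2 and from 2.62 to 3.19 CPM in clone 11, so the clones went opposite ways and the groups overlapped. Its log2 fold change was -0.03 ± 0.31 (edgeR adjusted p = 0.988). GSTM4 went from 29.4 to 27.1 CPM and from 25.9 to 28.4 CPM, with a log2 fold change of 0.00 ± 0.16 (adjusted p = 1.00). In GSTM2, chosen from the comparisons of knockouts with WT, all 6 knockout libraries were above the treated as well as the untreated WT libraries.

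GSTM3 went from 2.10 to 3.04 CPM in clone 2 and from 3.11 to 5.03 CPM in clone 11 after H2O2, which is 1.45 and 1.62 times the untreated level. The groups overlapped because the clones differed, and the log2 fold change of 0.63 ± 0.39 did not pass (edgeR adjusted p = 0.704). With the WT clone as a block it was 0.62 ± 0.26 (unadjusted P = 0.0376, adjusted p = 0.220). Over the alternatives the adjusted p ran from 0.220 to 1.00. No member met the DEG criterion or had an unadjusted P under 0.05 in the fit without the block, and the count by DESeq2 was 0. Of the 16997 tested genes 1.75% met the criterion without the block and 2.78% with it.

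The genes around the cluster were compared to see whether the GSTM2 difference extended along the chromosome. Of 25 listed neighbours 19 were tested, and by edgeR 0 met the DEG criterion in MUTYH-/, OGG1-/ or DKO against WT. The shares of all tested genes were 1.19%, 1.67% and 1.77%, so 0 of 19 is near them. Of the tested neighbours, 1 had an unadjusted P under 0.05 in MUTYH-/ and none in OGG1-/ and DKO. Of the 17881 tested genes, 308, 490 and 526 had an edgeR P of at most 0.05 in the same order. The low counts of neighbours are thus not read as a result. Their log2 fold changes ran from -0.52 to 0.68 in MUTYH-/, from -0.31 to 0.60 in OGG1-/ and from -0.31 to 0.40 in DKO. GSTM2 was chosen for its high value in these comparisons, so its place above the neighbours is not read as a result. The medians of the neighbours were 0.03, 0.06 and 0.04, and the medians of all tested genes were 0.01, 0.01 and 0.00. After H2O2, GNAT2, the cone transducin subunit, rose from 0.579 to 1.25 CPM (log2 1.10 ± 0.41), and the receptor gene GPR61 fell from 0.557 to 0.201 CPM (log2 -1.44 ± 0.56) by the DEG criterion, both with an edgeR adjusted p of 0.638. Of all tested genes 1.75% met that criterion after H2O2, and GPR61 was near the floor in treated cells. An unadjusted edgeR P of at most 0.05 was found for 5 of the 19 neighbours and for 1297 of the 16997 tested genes.

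**Figure D5:**
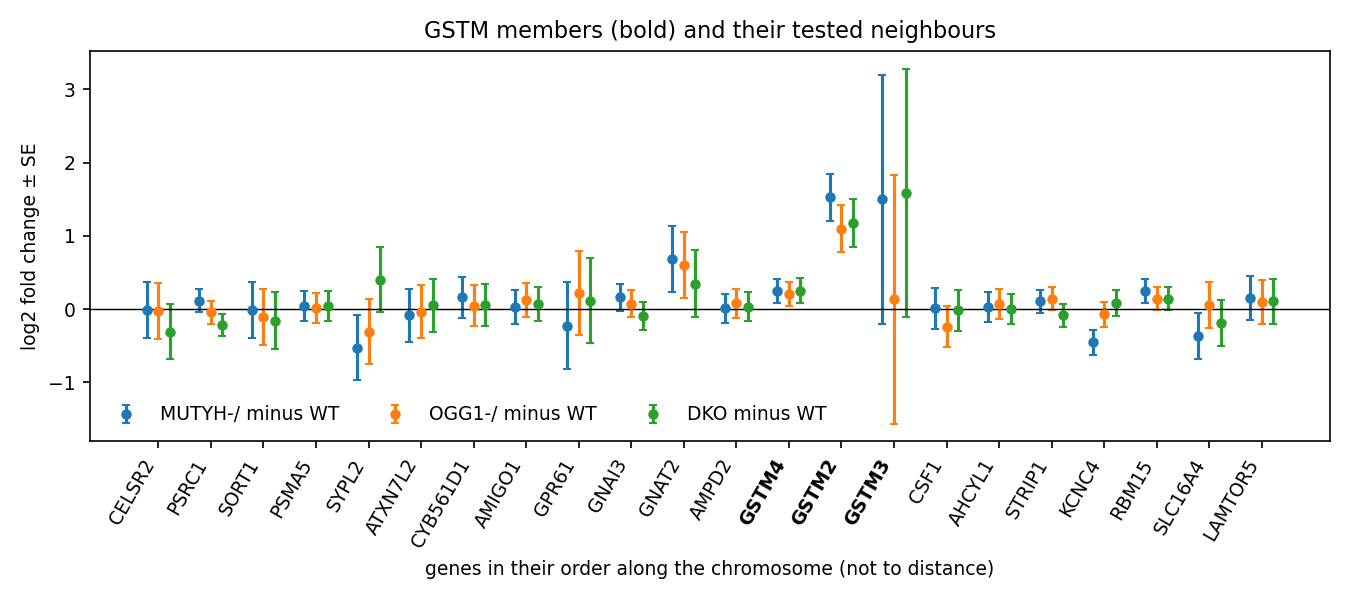
Log2 fold change ± SE against WT (y axis) of the tested GSTM members (bold) and the 19 tested neighbours, in their order along the chromosome (x axis, not to distance), for MUTYH-/, OGG1-/ and DKO (colours). GSTM2, chosen from these comparisons, lies at 1.10 to 1.53 and the neighbours lie between -0.52 and 0.68.

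The other genes of glutathione use were taken as 8 lists of 82 genes: other transferases, the membrane-bound enzymes, glutathione synthesis and breakdown, its reduction and the peroxidases, glutaredoxins and glyoxalases, conjugate export, and regulators. Of these, 62 were tested in the untreated libraries. Against WT, an unadjusted edgeR P of at most 0.05 was found for 0 of them in MUTYH-/, 2 in OGG1-/ and 3 in DKO. Of the 17881 tested genes, 308, 490 and 526 had such a P. In MUTYH-/ 0 of the 62 met the DEG criterion against WT by edgeR and by DESeq2 (1.19% of all tested genes did by edgeR). In OGG1-/, where 1.67% of all tested genes met it, 1 gene of the 62 did, ABCG2, an efflux pump, which was lower at 0.112 ± 0.031 CPM than in WT at 0.915 ± 0.792 CPM (log2 -2.96 ± 1.04). In DKO, where 1.77% of all did, 1 gene of the 62 met it, GSTT2B, at 0.532 ± 0.012 CPM against 0.134 ± 0.000698 CPM in WT (log2 1.96 ± 0.70). GSTT2B is a near-identical copy of GSTT2, so its counts are uncertain. The WT mean of GSTT2B was at the floor of 3 counts and the OGG1-/ mean of ABCG2 was under it. Both fold changes thus rest on few counts, and the SD does not cover the counting error. ABCG2 no longer met the criterion without WT clone 2 or OGG1-/ clone 22, nor GSTT2B without WT clone 11 or DKO clone 4. In MUTYH-/ 3 genes met it without WT clone 11 and 1 without MUTYH-/ clone 7 or clone 8. The medians of the 62 genes were 0.03, 0.08 and 0.05 in MUTYH-/, OGG1-/ and DKO, against the medians of all genes given above.

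Between knockouts, 3 of the 62 genes met the criterion with higher values in DKO than in OGG1-/ (1.44% of all tested genes met it in either direction), namely ABCG2 (log2 3.37 ± 1.03), GSTT2B (1.94 ± 0.70) and ABCC2, an exporter of glutathione conjugates (1.44 ± 0.59). In DKO against MUTYH-/, where 1.99% of all met it, 3 did, and the Omega-class transferase GSTO2 (1.29 ± 0.42), ABCG2 (2.54 ± 0.95) and ABCC2 (1.44 ± 0.59) were higher. These genes had at most 2.01 CPM in the mean of a group, and ABCG2 and GSTT2B were at or under the floor in OGG1-/. The edgeR adjusted p values of all these genes were 1.00. Leaving out any 1 library of the groups compared brought these counts to 1 or, without DKO clone 4 in the comparison with OGG1-/, to 0. In OGG1-/ against MUTYH-/ an unadjusted edgeR P of at most 0.05 was found for 0 of the 62 genes, and for 453 of the 17881 tested genes. In that comparison 0 of the 62 met the criterion by edgeR (1.43% of all tested genes did) and 1 by DESeq2. After H2O2, where 1.75% of all tested genes met it, MAFF, a small MAF protein that pairs with NRF2, was the only one of 60 to meet it and rose from 2.18 ± 0.137 to 5.21 ± 0.669 CPM (log2 1.25 ± 0.29, edgeR adjusted p = 0.638, and 0.030 with clone as a block). The block fit had 1 residual degree of freedom, and 437 of 16997 genes had an adjusted p of at most 0.05 in it, against 0 without the block. Of the 60 genes 2 did so with the block, MAFF and ANPEP. ANPEP was lower (log2 -0.80 ± 0.17, edgeR adjusted p = 0.029) but did not meet the DEG criterion. Without untreated WT clone 2, 4 genes met it.

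CD34, a marker of blood stem cells, met the DEG criterion with higher values in OGG1-/ (0.716 ± 0.437 CPM) and DKO (0.845 ± 0.270 CPM) than in WT (0.156 ± 0.031 CPM), by log2 2.16 ± 0.64 and 2.41 ± 0.63. It was also higher in both than in MUTYH-/ (0.202 ± 0.025 CPM), by log2 1.79 ± 0.61 and 2.03 ± 0.61. All of these had an edgeR adjusted p of 1.00. The 10 blood cell markers summed to 3.17 to 35.6 CPM in WT, 25.2 to 55.1 in MUTYH-/, 3.44 to 31.9 in OGG1-/ and 35.7 to 35.9 in DKO. Most of the higher sums was TAL1, without which they were 0.488 to 1.07 CPM in WT, 0.526 to 0.690 in MUTYH-/, 1.18 to 1.56 in OGG1-/ and 1.31 to 1.94 in DKO. CD33 was untested at these low counts but did not overlap with WT (0.156 CPM) in OGG1-/ (0.247 CPM) and DKO (0.243 CPM), and ITGAM was at 0 in WT and OGG1-/ and at 0.156 CPM in DKO. PTPRC had 0 to 3 counts, SPI1 0 to 1 and CD3E 0 over all libraries. The part of these markers in the GSTM2 difference was not tested.

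Over the 10 libraries the log2 CPM of GSTM2 and GSTM4 correlated with a Pearson r of 0.895, GSTM2 and GSTM3 with 0.039, and GSTM3 and GSTM4 with 0.287. These values are descriptions over libraries that share clones and controls. Among 14776 genes outside the family, the patterns most like GSTM2 were those of ZNF688 (r = 0.927), RAC3, a small GTPase (0.892), and HDAC5, a histone deacetylase (0.879). The patterns most like GSTM3 were those of GLB1L3 (0.918), the non-coding FAM225A (0.839) and TDP1, a DNA end-processing enzyme (0.831). For GSTM4 they were KPNA6, a nuclear import adaptor (0.922), the pseudogene EEF1A1P11 (0.920) and AC008764.6 (0.906). ZNF688 ranged from 3.27 to 5.93 CPM and GLB1L3 from 2.72 to 25.5 CPM over the libraries.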

How the data were processed

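RNA-seq read counts per gene of HAP1 clones were analysed. Per the labels and methods, the authors checked reads with FastQC 0.11.9, aligned them with HISAT2 2.2.1 to GRCh38.p13, counted them per gene and worked in R 4.2.2 with edgeR 3.42.4. The deposited values are whole-number counts, not normalized. The strand setting, the treatment of reads with several alignments and the read length are not given in the sources used here. The 2 untreated WT columns of the treatment table were identical to those of the genotype table and were used once. Samples were grouped by the genotype and treatment in the labels.

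The test was the quasi-likelihood F test of edgeR 4.0.16 (legacy=TRUE) in R 4.3.3, after TMM scaling and filterByExpr by group, with two-sided P values and Benjamini-Hochberg (BH) adjustment over all tested genes. The 8 untreated libraries gave 1 fit (17881 genes, 4 residual degrees of freedom), and the 4 WT libraries another (16997 genes, 2 residual degrees of freedom). The DEG criterion is that of the study. Log2 CPM used a prior count of 2, CPM were TMM-scaled, and SE came from the F statistic. P values rest on the spread between the libraries of a group, each from its own clone, with estimates of spread shared across genes. The DKO clones have a common parent clone, and the H2O2 fit without the block ignores that the WT clones are paired. Counting floors and errors cover counting error only. On simulated data with changed genes of log2 size 1, 73% had an unadjusted P under 0.05 for DKO against OGG1-/ and 78% for treated against untreated WT. The changed genes were drawn from all genes with a mean of at least 1 CPM. These shares thus do not hold for a gene that varies as much as GSTM3, and none was computed for adjusted p values.

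Treated and untreated WT libraries are paired by clone (the clone difference in treated cells correlated with that in untreated cells with r = 0.68 across 16997 genes, which are not independent), and clone as a block was an alternative. The other alternatives were DESeq2 1.42.0 size factors and its Wald test, no filter, legacy=FALSE, 10 or more counts per library, fits of only the groups compared or of all 10 libraries, the side of the first principal component as a block, and leaving out each library. The canonical transcript length was added after seeing the data. The members and lists were chosen with earlier results of these data known. Named were all members, list genes that met the DEG criterion with libraries that did not overlap between groups (at most 6 per comparison), the 3 genes most like each member with a mean of at least 1 CPM, OGG1 and MUTYH. Sequences were taken from GENCODE v44 and RefSeq, which differ in release from the annotation used for counting, and 127 of 128 listed genes had an annotation.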

Additional observations from a re-analysis of the deposited data

Results flagged for a closer look

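For GSTM2, the libraries with and without OGG1 were separated in opposite directions in cells with and without MUTYH. How many of all genes separate in this way was not counted. In cells with MUTYH, both OGG1-/ libraries were above both WT libraries (log2 1.10 ± 0.32), and in cells without MUTYH, both DKO libraries were below both MUTYH-/ libraries (log2 -0.35 ± 0.31). The latter did not pass the test (edgeR adjusted p = 1.00), so a lower GSTM2 level in DKO was not shown. The difference between these effects was not tested, since the comparison with WT had a part in the choice of the gene.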

How the results depend on the processing

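With both libraries of each group kept, no tested member passed or lost the criterion under another scaling, test, filter, set of groups in the fit or block. With the clone as replicate block the log2 fold changes after H2O2 were -0.03 for GSTM2, 0.62 for GSTM3 and 0.00 for GSTM4, and this block changed no call. GSTM4 after H2O2 changed sign to -0.0093 with at least 10 counts in every library. The number of glutathione list genes that met the criterion became 2 in MUTYH-/, 2 in DKO, 2 in OGG1-/ against MUTYH-/, 3 after H2O2 and 4 in DKO against OGG1-/ and against MUTYH-/ without a filter. With at least 10 counts in every library it became 0 in OGG1-/ and DKO against WT and 1 in DKO against OGG1-/. It became 0 in OGG1-/ with only the 4 libraries compared, 0 in DKO and 1 in OGG1-/ against MUTYH-/ by DESeq2, and 1 in the latter with the side block. For DKO against MUTYH-/ it ran from 2 to 4 over these settings, and was 4 with the side block and with only the 4 libraries compared. Leaving out 1 library, the number of members that met it ran from 0 to 1 for OGG1-/ and DKO against WT and for OGG1-/ against DKO and against MUTYH-/. The list count then ran from 0 to 3 in MUTYH-/, 0 to 2 in OGG1-/, 0 to 2 in DKO, 0 to 1 in DKO against OGG1-/, 1 to 1 in DKO against MUTYH-/, 1 to 2 in OGG1-/ against MUTYH-/ and 1 to 4 after H2O2. Log2 values that changed sign ran for GSTM3 against WT from -1.02 to 2.37 in MUTYH-/, -8.86 to 1.13 in OGG1-/ and -0.76 to 2.42 in DKO, and, for DKO minus OGG1-/, from -0.24 to 0.41 (GSTM2), -0.89 to 10.44 (GSTM3) and -0.11 to 0.21 (GSTM4). For DKO minus MUTYH-/ they ran from -2.25 to 2.61 (GSTM3) and -0.071 to 0.061 (GSTM4), and for OGG1-/ minus MUTYH-/ from -10.36 to 1.16 (GSTM3) and -0.21 to 0.11 (GSTM4). After H2O2 they ran from -0.20 to 0.13 (GSTM2) and -0.077 to 0.085 (GSTM4). Values of GSTM3 at -8.86, 10.44 and -10.36 are fits against 1 library at 0 counts and are no bounds. A group that lost a library kept 1, which is assumed to vary like the others. The cause of these changes was not tested. Depth limits GSTM1 and GSTM5, which were at or near the floor.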
